A study of Mus musculus with 5 samples.

Results

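The comparison described here set the late days of an osteoclast culture against its early days. The late side was the mean of the arrays labelled day 3 and day 5, and the early side was the mean of those labelled day 0 and day 1. With 2 arrays a side, it used 4 of the 5 arrays of the time course, and the day 2 array was kept apart. All arrays came from wild-type mice given an age of 10 weeks, whose bone marrow cells were grown on plastic as macrophages and then kept for the labelled number of days in M-CSF at 20 ng/ml and RANKL at 30 ng/ml. Each day had 1 array, made from 5 ng of total RNA on an Affymetrix platform, and the labels do not say how many animals or dishes lay behind it. No array was taken without RANKL after day 0, so differentiation and time in culture cannot be told apart. Of 22180 genes with a row of their own, 12036 had a mean over the 5 arrays of 4.89 or more on the log2 scale and are called measured here.

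Osteoclasts are multinucleated cells that form by fusion of macrophage precursors and resorb bone. M-CSF keeps the precursors alive and dividing, and RANKL acts through its receptor RANK on NF-κB, AP-1 and NFATc1 to start the osteoclast programme. A mature osteoclast seals a patch of bone with a ring of actin-rich podosomes, acidifies the space beneath with a proton pump and digests the matrix with secreted proteases. Precursors leave the cell cycle as they mature, and their mitochondria multiply.

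In what follows, the difference of a gene is its late mean minus its early mean on the log2 scale, and a gene rose or fell when that difference was 1 or more in size, which is 2-fold. The spread of a gene is the larger of its 2 within-side differences, day 1 against day 0 and day 5 against day 3, and a change was clear when it exceeded that spread. The days are not replicates, so the spread holds real change between days as well as measurement error, and no p-value was computed; 2 arrays against 2 could not go below 0.33 in a two-sided permutation test. In bulk RNA, fewer cells of a type and less RNA per cell cannot be told apart. The median of measured genes lay between 7.60 and 7.67 on the 5 arrays, and the median of 12 reference genes between 11.48 and 11.62. The day 0 array carried the macrophage markers Csf1r at 12.50 and Adgre1 at 11.93, as its label says.

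By this rule 700 genes rose late, 5.82% of those measured, and 647 fell, 5.38%. The rises were the larger ones. A difference of 4-fold or more was reached by 184 genes that rose and 112 that fell, and one of 3 or more on the log2 scale by 75 and 5. Of the changes, 645 rises and 572 falls were clear of the spread, 5.36% and 4.75% of measured genes. The nearest arrays of the sides were at least 2-fold apart for 405 of the rises and 339 of the falls, and the sides overlapped for 11 genes in each direction. The median difference over all measured genes was -0.02.

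The spread came mainly from the early side. Day 1 and day 0 were 2-fold or more apart for 854 genes, of which 351 were higher at day 1 and 503 lower, whereas day 5 and day 3 were that far apart for 33. The SD of the within-side difference over genes was 0.559 for the early pair and 0.237 for the late pair. In 124 of the 130 changes that were not clear, the early difference was the larger within-side one.

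**Figure D1:**
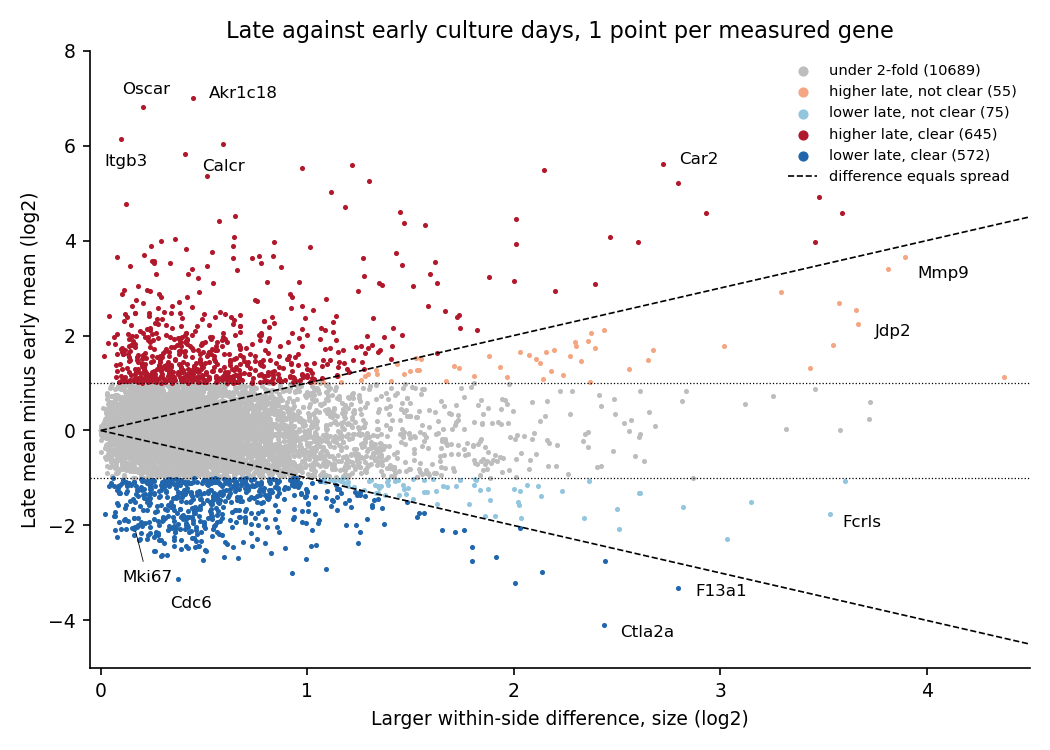
Each point is 1 of 12036 measured genes, with the larger within-side difference on the x axis and the late minus early difference on the y axis, both in log2 units. Red and dark blue points lie outside the dashed lines, where the difference exceeds the spread (645 higher and 572 lower), and Oscar, Itgb3 and Calcr stand near the left edge while Mmp9 and Fcrls lie inside the lines.

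The 3 osteoclast markers rose by 56.4-fold to 113-fold, and their values within a side lay close together. Oscar, a collagen-binding receptor that signals through an ITAM adaptor, read 4.88 at day 0, 4.67 at day 1, 9.15 at day 2, 11.52 at day 3 and 11.68 at day 5. Its difference of 6.82 compared with a spread of 0.20. Itgb3, the beta 3 chain of the vitronectin receptor, went from 4.25 and 4.32 on the early arrays through 8.90 at day 2 to 10.47 and 10.37, a 70.3-fold difference with a spread of 0.10. Calcr, the calcitonin receptor, read 4.43, 4.61, 6.62, 10.13 and 10.54 in day order. At day 2 the level of Calcr was still nearer the early side, whereas those of Oscar and Itgb3 were nearer the late side. Early levels of all 3 genes lay below 4.89, near the lower end of the scale, where RMA values compress a fold. Values there can move little, so the small early differences do not show that these genes were steady.

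The proliferation and macrophage markers moved the other way. Mki67, which marks cycling cells, read 11.60, 11.77 and 11.34 at days 0, 1 and 2 and then 9.68 and 9.61, a 4.12-fold decrease with a spread of 0.16. F13a1, the A chain of coagulation factor XIII and a macrophage marker, read 10.40, 7.60, 6.32, 5.98 and 5.39. It was 9.96-fold lower late, but 2.80 log2 units of that had passed between day 0 and day 1. The larger share of the fall of Mki67 therefore lay after day 2, and the larger share of that of F13a1 before day 2.

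**Figure D2:**
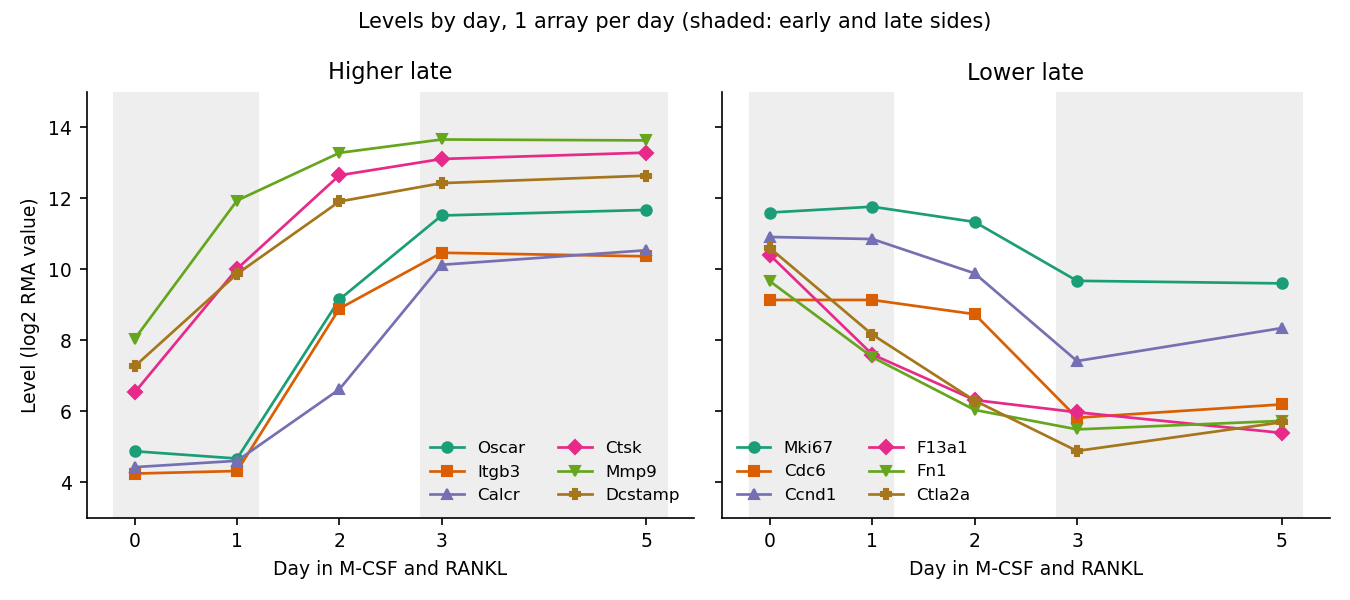
Levels (log2 RMA value) of 12 named genes by day, 1 array per day, with the early and late sides shaded. Oscar, Itgb3 and Calcr start between 4.25 and 4.88 and pass 10 at day 3, Mki67 and Cdc6 drop mainly after day 2, and F13a1, Fn1 and Ctla2a drop from day 0 on.

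Among clear changes the largest rise was that of Akr1c18, a hydroxysteroid dehydrogenase that inactivates progesterone. Its level was 4.50 and 4.06 on the early arrays, 9.08 at day 2, and 11.35 and 11.23 late, a 129-fold difference as measured. Both early values lay below 4.89, as for the markers above, so this fold and its rank are uncertain. Myo1d, an unconventional class I myosin, read 6.73, 6.14, 11.41, 12.55 and 12.39. Slc18a1, a vesicular monoamine transporter, read 4.67, 5.89, 9.79, 10.84 and 10.89. All 3 were far apart between sides and flat within the late side. Mt3, a metallothionein, differed by 5.53, Cd200, a membrane glycoprotein that restrains myeloid cells, by 5.50, and Steap4, a metalloreductase, by 5.36. The remaining members of the 12 largest rises were Car2, Rab38 and Slc9b2, which belong to the resorption genes. Apart from Myo1d, each of the 12 had an early value below 4.89, so their folds and order are uncertain as well.

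For the list counts that follow, the shares over all measured genes were 5.82% that rose and 5.38% that fell. Resorption genes rose almost as a group. Of 20 measured entries in a list of resorption enzymes and acid transport, 18 rose, none fell and 17 were clear, with a median difference of 2.23. Car2, the carbonic anhydrase that supplies protons, read 3.49, 6.21, 9.61, 10.53 and 10.40. Ctsk, the protease that cleaves bone collagen, read 6.54, 10.02, 12.65, 13.11 and 13.29. Acp5, the tartrate-resistant acid phosphatase, read 7.10, 10.56, 12.39, 12.76 and 12.86. These genes had already climbed by 2.72 to 3.48 between day 0 and day 1, unlike Oscar or Itgb3. Slc9b2, a sodium/proton exchanger, differed by 5.22, Rab38, a small GTPase of lysosome-related organelles, by 5.26, and Clcn7, the chloride/proton antiporter of the ruffled border, by 2.05. Rab27a at -0.14 and Rab7 at 0.18 were the pair that did not reach 2-fold.

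Subunits of the proton pump were higher by smaller amounts. Of 16 measured V-ATPase subunits 9 rose, all of them clear, none fell, and the median difference was 1.20. Of those that rose, Atp6v0d2, Tcirg1 and Atp6v1c1 are also on the resorption list and were counted there. Atp6v0d2, the subunit isoform enriched in osteoclasts, read 6.71, 8.72, 11.55, 12.21 and 12.13, a difference of 4.46. Atp6v1d differed by 2.04 and Atp6v1a, the catalytic subunit, by 1.68. Tcirg1, the a3 subunit of the osteoclast pump, had a difference of 1.25, while the a1 isoform Atp6v0a1 stood at -0.33 with 10.00 at day 0 and 8.19 to 8.91 later. Lysosomal hydrolases and membrane proteins that are not specific to bone resorption had a median of 0.21, with 5 of 33 up and 1 down. Arsb, an arylsulfatase, led them at 2.76, and a second, dimmer row of Arsb gave 3.90.

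Fusion and adhesion genes split into a few that rose steeply and many that did not reach 2-fold. In the fusion list 6 of 15 measured members rose, and 1 fell, Adam8 at -1.48. Dcstamp, a transmembrane protein required for fusion, read 7.27, 9.87, 11.91, 12.43 and 12.64, and its partner Ocstamp 4.04, 6.97, 9.61, 10.13 and 10.05. Both were more than 2-fold up at day 1 and rose further by day 3. The list median was 0.15 while the mean was 1.24, because Itgb3, Ocstamp, Dcstamp and Tm4sf19 stood between 3.62 and 6.14. Cd9 at 0.15, Cd44 at -0.28 and Cd47 at -0.20, which are also tied to fusion, did not reach 2-fold.

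In the list of adhesion, podosome and actin genes, 15 of 34 rose and 1 fell, with a median of 0.45 and a mean of 1.24. After Itgb3 and Myo1d came Itga2, an integrin chain that binds collagen, with 4.55, 6.0, 8.96, 9.97 and 9.79. Cttn, an actin-binding protein of podosomes, differed by 3.63 and Vcl, the adaptor vinculin, by 2.07. Lpxn, leupaxin, was the member that fell, from 11.38 and 11.87 to 9.82 and 10.14. Of the 15 clear members here, 14 had a day 2 level nearer the late side, at a median of 0.91 of the way. Most ITAM and costimulatory receptors other than Oscar did not reach 2-fold. In that list 3 of 15 rose, with Siglec15, a sialic acid receptor, at 1.96 and the adaptor Gab2 at 1.12, and Trem2 stood at -0.87.

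The signalling and transcription lists had medians near that of all measured genes. In the RANK signalling list 1 of 22 members rose, Traf5 at 1.10. Traf6, the main adaptor of RANK, was at 0.86 and the receptor gene Tnfrsf11a at 0.27, with 8.97, 8.79, 8.93, 9.22 and 9.08. Of 28 osteoclast transcription factors 6 rose and 3 fell, and the median was 0.01. Clear rises were those of Ppargc1b, a coactivator of mitochondrial genes, with 6.70, 8.29, 9.92, 10.26 and 9.97, and of Fosl2, an AP-1 subunit, at 1.92. Nfatc1, the master regulator of the osteoclast, read 7.64, 9.14, 9.98, 9.88 and 9.41. Its difference of 1.25 was below its spread of 1.5, and the same held for Jdp2, Prdm1 and Bhlhe40. All 4 were 2-fold or more above day 0 by day 1, so the contrast placed a high day 1 value on its early side. Myc fell, from 9.11 and 10.37 to 8.41 and 8.34, as did Nfatc2 and Pparg. Among 19 negative regulators of osteoclast formation 3 fell, led by Tgfbi at -1.86, and 1 rose, Rcan1 at 1.44, itself a feedback inhibitor of calcineurin.

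Mitochondrial genes had small positive differences. Of 25 measured genes of the TCA cycle and pyruvate dehydrogenase 11 rose, all clear, none fell, and no member had a negative difference. The median was 0.82. Pdhb, a pyruvate dehydrogenase subunit, read 10.29, 10.75, 11.55, 12.02 and 11.89, and Pdha1 8.44, 8.94, 9.70, 10.02 and 10.06. The list median moved by 0.33, 0.43 and 0.33 in the steps up to day 3 and by -0.08 from day 3 to day 5. The day 2 level of all 11 that rose was nearer the late side. In oxidative phosphorylation 6 of 44 reached 2-fold, among them Uqcrc2 at 1.26 and Ndufs1 at 1.23, and the median was 0.58. Atp5d led at 1.40, but a second row of that gene gave 0.59. Genes of the mitochondrial ribosome had a median of 0.14 and 1 rise in 37, that of Mrps35.

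Other metabolic lists had medians from -0.42 to 0.10 and single members that stood out. Ldhb, the heart-type subunit of lactate dehydrogenase, read 6.53, 5.89, 8.09, 9.95 and 10.24 and was 14.8-fold higher late. Slc2a3, a glucose transporter, fell by 1.59, and the glycolysis list as a whole had 3 rises and 1 fall in 22. Among iron genes Steap4 and Tfrc, the transferrin receptor, rose, with Tfrc at 8.62, 8.49, 9.80, 10.53 and 11.05, and in all 4 of 15 rose and 1 fell. Lipid genes leaned down. In the list of fatty acid synthesis and lipid handling 6 of 22 fell, 3 of them clear, and 1 rose, which was not clear. Fads2, a fatty acid desaturase, read 11.20, 9.19, 8.0, 6.79 and 7.16, and Elovl6, an elongase, 8.27, 7.79, 7.56, 5.87 and 5.89. Amino acid transport and serine synthesis had 4 falls in 18, led by Slc7a5, a transporter of large neutral amino acids, at -2.13 and Psat1, of serine synthesis, at -2.04, and 1 rise, that of the glutamine transporter gene Slc1a5 at 1.08. The sterol list had a median of -0.19 with 1 rise and 1 fall in 20, neither of them clear, although its median had dropped by 1.01 between day 0 and day 1.

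Of the lists described here, the 2 of the cell cycle had the most members that fell. Of 47 measured genes of mitosis and kinetochore 46 fell, all clear, with a median difference of -2.02, and Cenpa missed 2-fold at -0.96. Of 43 genes of DNA replication and S phase 37 fell, all clear, with a median of -1.69. These 2 lists held 82 of the 572 clear falls, counted by gene symbol as entered in the lists. Cdc6, which loads the replicative helicase, read 9.14, 9.14, 8.74, 5.82 and 6.20 and was 8.76-fold lower late. Ccnd1, cyclin D1 of the G1 phase, read 10.91, 10.86, 9.89, 7.42 and 8.35. Top2a, the topoisomerase that untangles sister chromatids, read 9.90, 10.25, 9.73, 7.66 and 7.87, and Cdk1, the mitotic kinase, 11.05, 11.62, 10.94, 9.54 and 9.74. Mcm3, a subunit of the replicative helicase, read 9.97, 10.20, 9.81, 7.76 and 7.99. In each of them the day 0, 1 and 2 arrays lay above the day 3 and day 5 arrays, though that of Ccnd1 was already lower at day 2. The list medians moved by 0.33 and 0.25 between day 0 and day 1, by -0.62 and -0.41 between day 1 and day 2, by -1.64 and -1.49 between day 2 and day 3, and by 0.18 and 0.14 between day 3 and day 5, mitosis first.

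The 12 largest falls held further genes tied to the cell cycle, beside others such as Ctla2a, F13a1 and Fn1 that are not. Pbk, a mitotic kinase, differed by -2.72, Hrob, a factor of homologous recombination, by -2.71 and Aunip, a partner of Aurora A, by -2.69. Outside the 12, E2f8, a repressor of the E2F family, differed by -2.65 and Nuf2, of the outer kinetochore, by -2.50. Aurkb, the chromosomal passenger kinase, differed by -2.43. Pole, the leading-strand polymerase, differed by -2.62 in its brighter row and by 0.00 in a row near the lower end of the scale. G1 regulators were mixed. In that list 5 of 23 fell, among them Rbl1, a pocket protein, at -2.21, and Cdkn2b, an inhibitor of CDK4 and CDK6, rose from 6.88 and 6.86 to 8.74 and 8.42.

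Because these genes moved together, their promoters were searched for short motifs. RefSeq windows (GRCm38.p6) from 250 bases before to 50 after a gene's start were searched on both strands for TTTGAA, the core of the CHR element of mitotic genes, and CCAAT, the NF-Y box. TTCCCGC or TTGGCGC (E2F), TGANTCA (AP-1) and CACGTG (E-box) were searched as well. Matches may overlap, and the reverse of CCAAT shares 4 letters with TTGGCGC. Windows of Mki67, Top2a, Cdk1, Mcm3 and Oscar follow. They were picked after the values were seen, as examples of the mitosis and replication lists beside 2 of the markers. Each runs 5′ to 3′ on the gene's strand, and capitals mark the matches. Their places are chr7:135716330-135716629, chr11:99024140-99024439, chr10:69352863-69353162, chr1:20820263-20820562 and chr7:3616108-3616407, all on the minus strand.
Mki67: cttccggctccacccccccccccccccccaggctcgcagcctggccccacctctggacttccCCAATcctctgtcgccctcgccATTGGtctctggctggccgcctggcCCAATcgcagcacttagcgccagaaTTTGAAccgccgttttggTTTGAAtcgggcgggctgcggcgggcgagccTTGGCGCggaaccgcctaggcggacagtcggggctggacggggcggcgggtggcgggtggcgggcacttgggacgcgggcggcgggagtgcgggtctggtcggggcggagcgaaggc
Top2a: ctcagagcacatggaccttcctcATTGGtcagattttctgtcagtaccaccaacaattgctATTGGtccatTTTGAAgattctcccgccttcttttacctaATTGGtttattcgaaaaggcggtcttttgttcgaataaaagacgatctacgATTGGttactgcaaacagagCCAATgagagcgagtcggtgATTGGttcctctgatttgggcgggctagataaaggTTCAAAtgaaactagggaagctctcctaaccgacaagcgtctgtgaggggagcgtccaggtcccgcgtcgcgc
Cdk1: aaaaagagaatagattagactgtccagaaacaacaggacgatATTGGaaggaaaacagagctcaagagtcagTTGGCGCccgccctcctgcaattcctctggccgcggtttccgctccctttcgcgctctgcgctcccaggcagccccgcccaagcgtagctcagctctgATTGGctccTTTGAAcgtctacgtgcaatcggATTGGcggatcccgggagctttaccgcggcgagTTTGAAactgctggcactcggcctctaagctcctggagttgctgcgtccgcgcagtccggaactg
Mcm3: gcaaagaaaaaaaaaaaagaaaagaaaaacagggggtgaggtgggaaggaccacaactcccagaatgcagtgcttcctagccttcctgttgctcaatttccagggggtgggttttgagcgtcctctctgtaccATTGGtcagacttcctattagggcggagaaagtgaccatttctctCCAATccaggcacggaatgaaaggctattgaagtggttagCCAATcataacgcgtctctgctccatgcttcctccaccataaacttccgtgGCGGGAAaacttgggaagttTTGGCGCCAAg
Oscar: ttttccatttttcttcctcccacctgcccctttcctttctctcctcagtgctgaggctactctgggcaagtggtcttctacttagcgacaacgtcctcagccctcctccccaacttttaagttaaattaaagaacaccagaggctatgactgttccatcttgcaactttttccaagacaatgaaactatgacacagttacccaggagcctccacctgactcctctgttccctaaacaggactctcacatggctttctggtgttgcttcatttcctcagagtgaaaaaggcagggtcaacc

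The Mki67, Top2a and Cdk1 windows each held 2 CHR matches and 3 or more NF-Y boxes, and those of Mki67 and Cdk1 also an E2F match. That of Mcm3 held 3 NF-Y boxes and 3 overlapping or neighbouring E2F matches downstream of the start, and that of Oscar held no match. Over clear genes of the mitosis list, 62.5% of 40 windows had a CHR match, 75% an NF-Y box and 22.5% an E2F match. In clear genes of the replication list, 50% of 38 windows had an E2F match, 65.8% an NF-Y box and 15.8% a CHR match. These windows came from 36 of 46 mitosis genes and 32 of 37 replication genes, and the other genes had none. Genes with several windows entered more than once, and windows of a gene can overlap, as for Prc1 and Ect2. The shares are therefore of windows, not of genes. The shares over windows of all measured genes were 12.1% for CHR, 37.5% for the NF-Y box and 11.6% for E2F, and over all 32851 windows in RefSeq's set they were 17.9%, 37.4% and 6.81%. All clear falls together gave 25% for CHR, 52.0% for the NF-Y box and 25% for E2F, and clear rises 8.81%, 35.9% and 6.84%. AP-1 matches were found in 5.93% of windows of clear rises and 4.47% of clear falls, against 5.50% of measured genes and 7.81% of all windows. For the E-box these shares were 8.81%, 7.82%, 9.90% and 7.15%. A match is a string of letters and was not tested as a binding site.

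**Figure D3:**
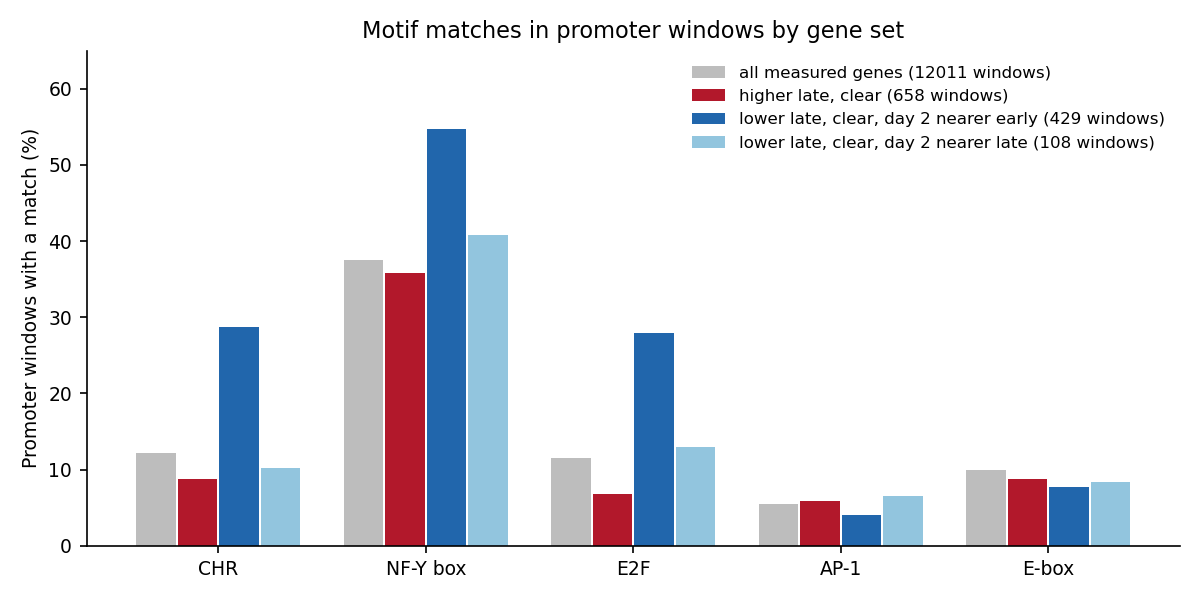
Bars give the percent of promoter windows with at least 1 match, for 5 motifs and 4 gene sets, each set described by its number of windows. CHR, NF-Y box and E2F bars are tallest in genes that fell late and were still near their early level at day 2 (28.7%, 54.8% and 28.0%), and AP-1 and E-box bars lie between 3.96% and 9.90% in all 4 sets.

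Ribosome biogenesis genes moved up by day 1 and down after day 2, a course also seen in Myc and Slc7a5. Of 36 measured genes for nucleolar proteins and RNA polymerase I, 10 fell, 8 of them clear, none rose, and the median was -0.75. Their median moved by 0.81 from day 0 to day 1 and by -1.04 from day 2 to day 3. Rrp1b, a nucleolar processing factor, read 7.41, 8.14, 7.68, 5.60 and 6.02, Nop58, a core box C/D snoRNP protein, 9.97, 10.97, 10.65, 8.95 and 8.94, and Dkc1, the pseudouridine synthase dyskerin, 8.53, 10.02, 9.65, 7.92 and 7.60. Levels at day 1 and day 2 were thus above both day 0 and the late side. Genes of the cytosolic ribosomal proteins themselves did not reach 2-fold in any of 32 cases, with a median of -0.06.

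Macrophage genes were lower late in a few strong cases, while the group returned part of the way. Of 37 measured macrophage identity genes 6 fell, 4 of them clear, none rose, and the median was -0.31. Fn1, fibronectin, read 9.66, 7.53, 6.04, 5.49 and 5.73, and Cx3cr1, the fractalkine receptor, 9.69, 7.89, 7.72, 5.86 and 6.23. Both fell further after day 1. By contrast the median of the list moved by -1.27 from day 0 to day 1, by 0.46 from day 2 to day 3 and by 0.30 from day 3 to day 5. Csf1r, the M-CSF receptor, read 12.50, 11.71, 12, 12.34 and 12.36, and Mrc1, the mannose receptor, 11.69, 9.61, 9.12, 9.76 and 9.93. Neither reached 2-fold between sides, and the late arrays of Csf1r lay between its early ones.

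Host defence genes held more falls than rises in some lists. Complement and coagulation genes fell in 7 of 18 cases, 4 of them clear, with a median of -0.61, and Cfb, complement factor B, rose by 1.39. F13a1 and Fn1, which led these falls, are also on the macrophage identity list. Plaur, the urokinase receptor, read 11.04, 10.77, 10.24, 8.43 and 9.0. Cytokines and chemokines fell in 6 of 25 cases, 4 of them clear, and rose in 2. Ccl2, which recruits monocytes, read 10.48, 8.04, 7.89, 6.43 and 6.61, and Tnfsf9 8.38, 7.77, 6.52, 5.73 and 5.63, while Lif, a cytokine of the interleukin-6 family, went up from 5.27 and 5.10 to 7.17 and 7.21. Gpr84, a receptor for medium-chain fatty acids that is not on these lists, was lower late by 2.92. Among 27 Toll-like and other pattern receptors Clec7a, the beta-glucan receptor Dectin-1, rose and Nlrp3 fell. In the list of MHC class II presentation 1 of 12 rose, Ifi30 at 1.14.

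Interferon-stimulated genes had their lowest level on the array the contrast leaves out. Their median moved by -0.55 from day 1 to day 2 and by 1.06 from day 2 to day 3. Usp18 read 6.53, 6.37, 5.14, 7.01 and 7.48 and Ifit1 6.49, 5.49, 5.40, 7.03 and 7.22. Between sides 2 of 26 rose, Zbp1 at 1.14 and Ifit1 at 1.13, none fell, and the median was 0.31. None of 20 genes of the unfolded protein response reached 2-fold, and of 21 immediate early genes 2 fell, Dusp5 at -1.61 and Klf4 at -1.24.

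**Figure D4:**
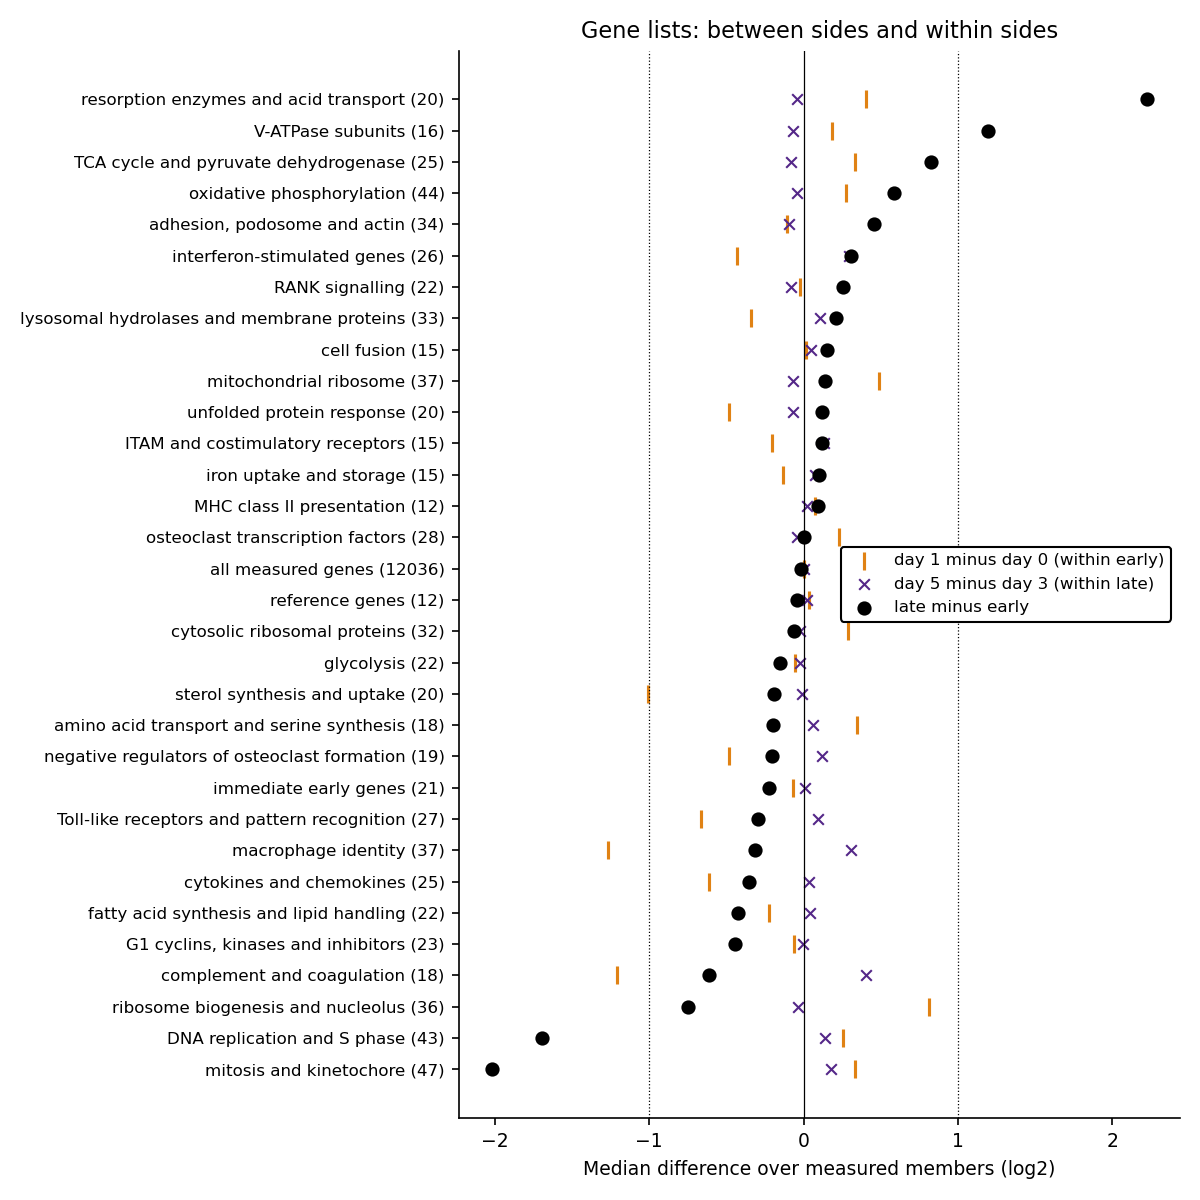
Median differences (log2) over the measured members of each list with 10 or more of them, number in brackets, between sides (black) and within the early and late sides (orange and purple). Mitosis and replication stand at -2.02 and -1.69 and resorption at 2.23 with small medians within sides, while macrophage identity and complement have their largest median, -1.27 and -1.21, between day 0 and day 1.

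The 130 changes that were not clear were mainly genes that had moved by day 1. Mmp9, a secreted gelatinase of osteoclasts, read 8.05, 11.94, 13.29, 13.66 and 13.64, so its difference of 3.66 was below the 3.90 between day 0 and day 1. Src, the kinase needed for the ruffled border, read 5.07, 8.37, 9.47, 9.88 and 9.39, and Akap6, a kinase anchor, 4.94, 8.75, 9.91, 10.35 and 10.12. In all 3 genes both late arrays were above both early arrays, by 1.02 or more. Tnfrsf9, the receptor 4-1BB, differed by 2.68 and Plxna4, a semaphorin receptor, by 2.54. On the falling side Ccnd2, cyclin D2, read 8.42, 5.39, 5.27, 4.13 and 5.11 and Gfra2, a GDNF family receptor, 6.40, 8.91, 7.84, 5.54 and 5.59. Fcrls, an Fc receptor-like gene of macrophages, had 8.81 at day 0 and 4.56 to 5.27 on every other day. Its sides overlapped, and its difference of -1.77 rested on the day 0 array.

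The day 2 array, which the contrast did not use, lay nearer the late side for most rises and nearer the early side for most falls. The position of a gene at day 2 is the share of the way from its early to its late mean, 0 being the early mean and 1 the late one. Only clear changes were counted. In 124 of the 130 changes left out, the early difference was the larger within-side one, so genes that moved by day 1 are under-represented. Among 645 clear rises the median position was 0.61, with quartiles of 0.43 and 0.79, and 434 were nearer the late side. Among 572 clear falls the median was 0.26, with quartiles of 0.17 and 0.42, and 468 were nearer the early side. Without the 82 genes on those lists the median of the falls was 0.28 and 387 of 490 were nearer the early side. On those lists 46 of 46 clear mitosis genes and 36 of 37 clear replication genes were nearer the early side at day 2, with E2f2 as the exception.

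**Figure D5:**
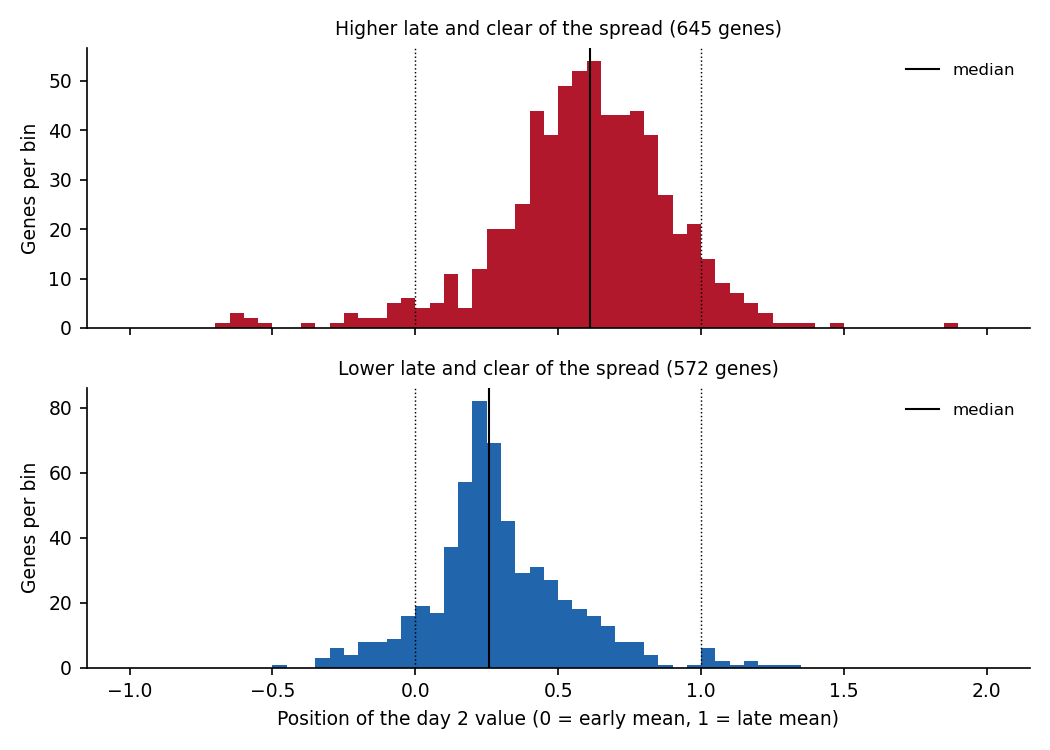
Histograms of the day 2 position of each gene that changed clearly, in bins of 0.05, with the early mean at 0, the late mean at 1 and a black line at the median. The 645 rises centre on 0.61 and the 572 falls on 0.26.

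Individual genes ranged from complete to absent at day 2. Among clear rises of 4-fold or more, Hbegf, a ligand of the EGF receptor, read 4.97, 5.81, 8.05, 7.41 and 7.91 and so stood beyond its late mean at day 2. Lif had a position of 1.12, Plcb4, a phospholipase C, 1.09, and Nudt22, a nucleotide hydrolase, 1.06. At the other end Adgre4, an adhesion receptor of the EMR family, read 6.43, 5.70, 6.09, 8.09 and 9.12, at 0.01. The histone gene H2bc21 was at 0.10 and Corin, a serine protease, at 0.22. Among falls of that size Fn1, F13a1 and Ctla2a, an inhibitor of cysteine proteases, had covered 0.75 to 0.86 of the way. Ctla2a was the largest fall of all, with 10.60, 8.16, 6.30, 4.88 and 5.69, 17-fold between sides. Gja1, connexin 43, read 6.90, 8.14, 8.17, 5.50 and 4.79, and Slc7a5 8.02, 9.73, 9.41, 6.69 and 6.79. In both the day 2 level was above the early mean, and the same was true of Mybl2 and Cdca7, though a second row of Mybl2 was dim and differed by -0.82.

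Averaging the days of a side hid genes that moved within it. Of the 854 genes 2-fold or more apart between day 0 and day 1, 585 were neither higher nor lower between sides. Slc9a9, an endosomal sodium/proton exchanger, read 10.85, 7.53, 7.66, 9.13 and 9.33, and Tlr8, a receptor for RNA, 9.90, 7.21, 7.21, 8.55 and 8.77. Maf, a transcription factor of macrophages, read 9.77, 7.16, 7.30, 8.28 and 8.50. These genes dropped at day 1 and came partly back. The opposite course was seen in Mycl, a relative of Myc, with 3.78, 7.50, 6.50, 6.07 and 5.69, and in Slc6a4, the serotonin transporter, with 4.20, 7.78, 7.36, 6.83 and 5.16. Slc6a4 had a difference of 0.00 between sides and also the largest drop from day 3 to day 5, by 1.68, among genes level between sides. Within the late side Nbl1, a BMP antagonist, had the largest increase of that kind, 1.17.

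Some markers of other cell types were measured on these arrays. The mean level over all 18 granulocyte genes was 6.58 and 6.49 on the early arrays and 6.19 and 5.90 on the late ones. Of 16 measured, 3 fell, among them Ngp, a granule protein, with 9.44, 9.61, 8.32, 8.65 and 8.06, and S100a9, and 1 rose, Hp. The lists of T and NK, B, stromal, endothelial, dendritic, megakaryocyte and mast, and erythroid markers had 24 measured genes, of which Cd5 at 2.63 and Vwf at 1.61 rose and Ppbp at -1.33 fell. Several of them had high levels on some or all days. The platelet chemokine gene Pf4 read 12.23, 11.87, 11.03, 11.06 and 11.55, and Ppbp 8.89, 7.55, 7.12, 6.74 and 7.05. Itgax, an integrin chain of dendritic cells and other myeloid cells, read 7.57, 9.07, 7.95, 8.37 and 8.89. Dcn, a matrix proteoglycan of stromal cells, read 5.20, 8.45, 8.44, 7.99 and 7.13. The part of such cells in the results was not tested. Among the reference genes Sdha, a TCA cycle enzyme, rose by 1.14 and Tubb5, a tubulin, fell by 1.11, and a second row of Tubb5 gave -0.86. Nat8f4 with a mean of 4.8902 and Psors1c2 with 4.8903 were just inside the level limit, and Hipk4 with 4.8887 and Smim1 with 4.8883 just outside. Below the limit 23 of 10144 genes differed by 2-fold or more.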

How the data were processed

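The authors deposited log2 values for the 5 arrays. The submitters' processing notes name RMA, the oligo package and R 3.4.0. Which probe annotation and summary level were used is not given in the sources used here. RMA forces a common distribution on the arrays and thereby removes any shift that all genes share. Values were used as deposited, and the number of arrays, 1 a day, limits the precision.

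Of 41345 rows, 23521 named 1 gene in the platform annotation, 1814 named several and 16010 were not listed. Symbols were checked through RefSeq (GRCm38.p6), where 23328 rows matched and 0 symbols changed. Several rows existed for 1082 genes, which were read from their brightest row. Genes with a mean of 4.89 or more, the median over all rows, were measured.

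The contrast subtracts the early mean (days 0 and 1) from the late mean (days 3 and 5), with no test. The members, the 39 gene lists (962 entries, 70 of them with no row analysed here) and the rules were chosen with earlier results of these data known. Named were the 5 markers, the 12 largest clear changes each way, the 6 largest each way that were not clear, the 5 highest and 5 lowest day 2 positions each way among 4-fold changes, the 3 largest members and the extremes of each list, and the 4 largest moves each way within a side among genes differing by under 0.5 between sides. Predicted genes, small RNA genes and receptor clusters were counted, not named, and for lists only the leading members are printed. Further list members, such as Ctsk, Acp5, Nfatc1, Csf1r, Top2a, Cdk1 and Mcm3, were named after their values were seen. The code was tested on simulated data. Alternatives covered the level filter, the rule for rows, the fold, the centring of the arrays, the arrays used and the list summary. Python 3.11.15, numpy 2.4.6, pandas 2.3.3 and matplotlib 3.10.9 were used.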

Additional observations from a re-analysis of the deposited data

How the results depend on the processing

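No named gene at 2-fold and no list median of 1 or more in size turned its direction under any alternative run. For clear genes this was fixed in advance where 1 array was left out, since that moves a difference by less than the spread. Centring shifts were likewise too small to turn a 2-fold change. Pole stood at 0.00 when read from its dimmer row. Fcrls read 5.27 on the day 1, day 3 and day 5 arrays, so its difference vanished without the day 0 array. Counts are given in the order higher, higher and clear, lower, lower and clear, and day 2 nearer early and nearer late among the clear genes. At the values reported these were 700, 645, 647, 572, 679 and 538. With a level limit at the 75th percentile of row means they were 443, 402, 429, 385, 431 and 356, since fewer genes were counted. With a 1.5-fold limit they were 1462, 1249, 1524, 1190, 1427 and 1012, and with a 4-fold limit 184, 176, 112, 110, 134 and 152. Which direction had more genes thus turned at 1.5-fold, and which side of day 2 had more turned at 4-fold. Requiring every late array to be 2-fold or more from every early array, an alternative chosen after seeing the data, left 405 higher and 339 lower. Adding day 2 to the late side left 161 clear falls, and adding it to the early side 294 clear rises, where the day 2 value enters a side mean as well as the spread. With day 2 on the late side the list medians were -1.16 for replication and -1.51 for mitosis, and with day 2 on the early side 0.96 for the V-ATPase. Leaving out each array in turn gave 692 to 825 higher and 627 to 829 lower, with more lower than higher without day 0 (796 against 736) or day 1 (829 against 825). Without day 0, 553 of the 700 and 538 of the 647 were shared. Centring the arrays on the reference genes shifted the median difference by -0.10 and gave 615 higher and 756 lower, the reverse balance, and centring on measured genes shifted it by 0.06 and gave 762 and 591. Of list medians under the alternatives, 487 stayed within the spread and 17 moved, mainly lists with 3 measured members or lists whose mean exceeds their median. Of the differences of named genes, 1775 stayed within the spread and 64 moved. Runs that left out 1 array could not add to those 64, since they move a gene's difference by less than its spread. No paired analysis was possible because each day has 1 array, all arrays carry the same replicate number, and groups therefore share fewer than 2 numbers.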

Other observations

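Gene families defined by symbol and chosen after their values were seen held further changes. The counts describe these arrays only, beside 5.82% of all measured genes that rose and 5.38% that fell. Histone genes split in opposite directions. Of 25 measured, 12 fell and 4 rose, all 16 clear, and all 16 were nearer the early side at day 2. H2ax, the variant of the DNA damage response, read 11.40, 12.09, 11.36, 9.16 and 9.63 at days 0, 1, 2, 3 and 5, and the cluster gene H2bc18 read 8.67, 8.74, 8.43, 6.54 and 6.98. H2bc21 went the other way, with 7.13, 7.47, 7.51, 9.43 and 9.47, as did H2aw, with 7.11, 6.50, 7.19, 8.79 and 8.53. Members of both directions thus turned between day 2 and day 3. Near-identical histone copies can share probes, so single members are uncertain. Of 15 nucleoporins 6 fell and none rose, led by Nup210 at -1.95, with the same late turn.

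Genes for the use of ketone bodies rose, and some of those for fatty acids. The share of all measured genes that rose was 5.82%. All 4 measured genes of ketone body use rose, led by Bdh1, a hydroxybutyrate dehydrogenase, with 4.84, 5.41, 8.63, 9.57 and 9.49, and Oxct1, which activates acetoacetate, with 8.73, 8.81, 9.65, 10.50 and 10.67. Of 29 genes of fatty acid oxidation 7 rose and none fell, with a median of 0.69, among them Acaa2, a mitochondrial thiolase, at 1.97 and Etfdh, which passes electrons to coenzyme Q, at 1.61. In coenzyme Q synthesis 3 of 11 rose. Coq8a, an atypical kinase of that pathway, read 5.79, 7.36, 9.51, 11.07 and 10.75. Of 10 protein genes encoded by mitochondrial DNA, 4 rose, ND3 the most at 1.54, and none had a negative difference.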
